A study of Mus musculus with 5 samples.

Results

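The 50 genes described here are imprinted genes chosen by name from the 23997 gene names of the E16 cortex table. They fall into 18 clusters and single loci, and 24 of them are classed as paternally expressed, 22 as maternally expressed and 4 (Grb10, Ddc, Gnas and Inpp5f) as expressed from a parental copy that depends on the transcript or cell type. RNA was sequenced from the entire cortex of C57BL/6 embryos at embryonic day 16. The 3 control libraries came from Uhrf1 +/- embryos (control 1, 2 and 3) and the 2 cKO libraries from Uhrf1 -/- embryos (cKO 1 and 2). Embryos of both groups carried the Emx1-driven Cre, so the controls also had lost Uhrf1 from 1 allele in Cre-expressing cells. Emx1 drives the Cre in the dorsal telencephalon after the parental imprints have been laid down, and interneurons, vessels, meninges, microglia and blood keep Uhrf1. Levels are in FPKM, the fragments of a gene divided by its length in kilobases and by the size of the library, which counts both parental copies of a gene together, and allelic expression was not measured. The study calls the libraries biological replicates. Below, values stand in the order control 1, 2 and 3 against cKO 1 and 2.

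An imprinted gene is transcribed mainly from the copy inherited from 1 parent. Each cluster is governed by a control region that carries DNA methylation on the chromosome from only 1 parent, set in the germ line, and this methylation has to be copied at every cell division by Dnmt1, which Uhrf1 brings to newly replicated DNA. Where the control region is itself the promoter of a noncoding RNA or protein-coding gene, as for Kcnq1ot1, Snrpn, Peg3 and Plagl1, the methylated copy is silent, and at H19 and Igf2 the region instead decides which gene an enhancer reaches. Many imprinted genes act in growth and in the developing brain. The comparison of cKO with control asks whether the summed output of these genes differed once their maintenance factor was removed.

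The deleted gene, Uhrf1, stood at 7.24, 13.2 and 12.95 against 2.75 and 2.61 FPKM (log2 fold change -1.97, adjusted p = 0.00772, limma), and both cKO libraries were under all controls. Its adjusted p was 0.258 when cKO 1 was left out and 0.267 when cKO 2 was. Other factors that keep imprints were expressed too. The zinc finger protein Zfp57, which binds the methylated copy, was at 82.8, 79.3 and 68.3 against 76.6 and 71.1 FPKM, and its partner Trim28 at 161, 151 and 121 against 116 and 158 FPKM. Of the 14 maintenance factors tested, Uhrf1 alone had an unadjusted p under 0.05, and Dppa3 and Dnmt3l were listed at 0 in every library.

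Promoter sequences of 4 paternally expressed members show the CpG dinucleotides, the sites of the methylation that Uhrf1 helps to copy, next to the start of the genes that carry the imprint. They were taken from RefSeq on GRCm38.p6, run 5′ to 3′ on the strand of the gene and end just before its start or before exonic sequence, with CpGs in capitals. Those of Snurf (chr7:60005200-60005449, minus strand, inside the longer span of Snrpn), Peg3 (chr7:6730463-6730558, minus strand, the stretch between the Peg3 and Usp29 starts), Plagl1 (chr10:13090582-13090787, plus strand) and Kcnq1ot1 (chr7:143296548-143296797, minus strand) hold 3, 3, 15 and 5 CpGs in 250, 96, 206 and 250 bases.
Snurf: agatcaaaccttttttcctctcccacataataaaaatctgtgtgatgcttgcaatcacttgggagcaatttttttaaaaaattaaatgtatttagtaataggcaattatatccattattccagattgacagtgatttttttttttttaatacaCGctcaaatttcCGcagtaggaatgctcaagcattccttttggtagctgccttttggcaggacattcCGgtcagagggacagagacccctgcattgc
Peg3: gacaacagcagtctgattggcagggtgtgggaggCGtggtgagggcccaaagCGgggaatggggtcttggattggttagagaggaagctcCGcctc
Plagl1: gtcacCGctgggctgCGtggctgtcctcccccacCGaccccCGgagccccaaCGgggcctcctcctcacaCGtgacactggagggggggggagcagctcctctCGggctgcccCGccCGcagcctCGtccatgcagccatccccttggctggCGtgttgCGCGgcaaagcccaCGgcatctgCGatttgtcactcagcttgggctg
Kcnq1ot1: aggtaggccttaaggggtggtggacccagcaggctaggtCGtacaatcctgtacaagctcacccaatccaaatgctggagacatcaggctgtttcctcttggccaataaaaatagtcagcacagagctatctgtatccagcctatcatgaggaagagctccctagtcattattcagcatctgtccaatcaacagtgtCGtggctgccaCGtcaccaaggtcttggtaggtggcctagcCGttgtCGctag
Promoter windows of 300 bases, 250 before and 50 after a start, were found for 40 of the 50 members and numbered 57, because some members have several starts. The windows of members held a median of 15 CpGs and those of all genes a median of 7. The hexamer TGCCGC or its reverse complement GCGGCA, the core recognised by Zfp57, was, with identical windows counted once, in 12 of the 56 windows of members (21.4%) and in 11.6% of the 32817 windows of all genes. The hexamer itself holds a CpG, and these shares were neither tested nor adjusted for the higher CpG content of the member windows. Snurf and Snrpn share 1 of the 12, and 2 others are nearly coincident windows of Mest. The Plagl1 sequence above holds 1 copy. The Snurf window also holds 1, which straddles the start and so runs past the end of the stretch printed here, and the Peg3 and Kcnq1ot1 sequences hold none. Zfp57 sites can lie outside these windows.

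Most of the imprinted genes were expressed in the cortex, 39 of 50 with a mean of 1 FPKM or more, and 45 passed the filter of 0.1 FPKM used for testing. On this per-length scale the highest was Nnat, the membrane proteolipid neuronatin, at 1236, 1149 and 1383 against 1592 and 966 FPKM. Gnas, which encodes the stimulatory G protein alpha subunit, followed at 311, 311 and 267 against 396 and 329.5 FPKM. Ndn, the MAGE protein necdin, was at 215, 185 and 227 against 239 and 174 FPKM. Both cKO libraries of Gnas lay above the controls, whereas for Nnat and Ndn the cKO libraries lay on either side of the controls.

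**Figure D1:**
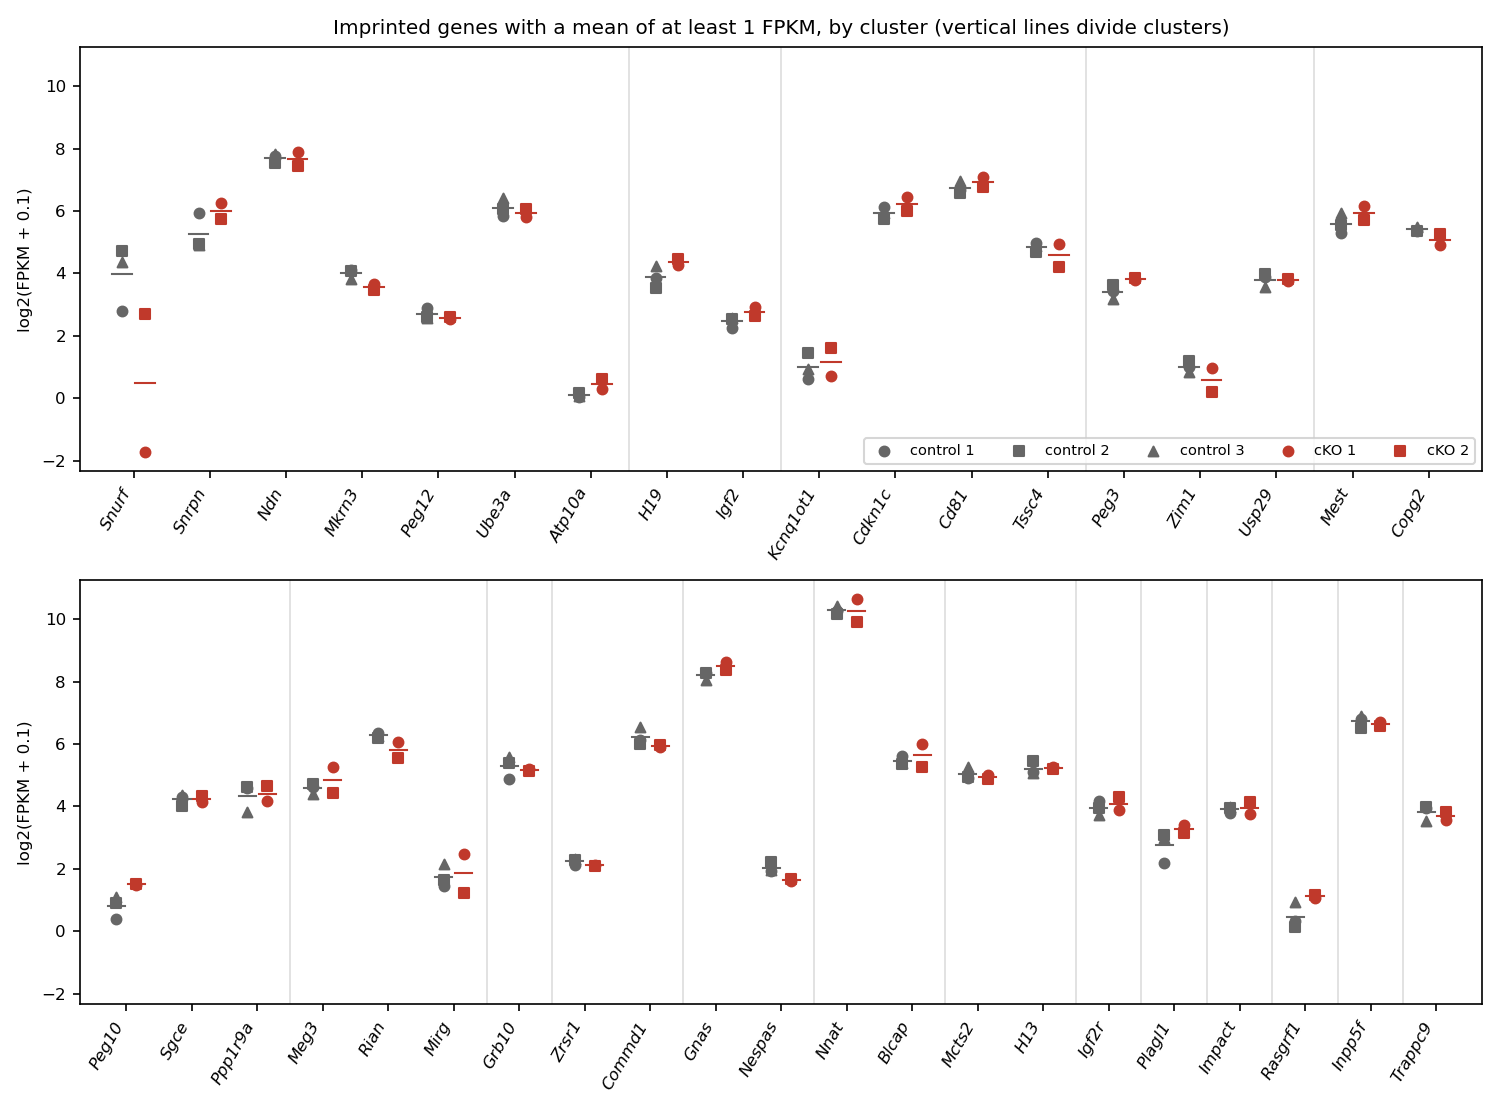
Levels of the 39 imprinted genes that averaged 1 FPKM or more, on the log2(FPKM + 0.1) scale, in 2 panels ordered by cluster. Each point is a library, grey for the 3 controls and red for the 2 cKO, horizontal bars are group means, and the widest separation between groups is at Snurf, on the left of the upper panel.

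The 5 members under the filter are known for roles in placenta, pancreas or fat. Ins2, an insulin gene, and Phlda2, which limits placental growth, were listed at 0 in all 5 libraries. Ascl2, a transcription factor of the trophoblast, was at 0.028 FPKM in control 1 and at 0 elsewhere. Klf14 reached 0.054 FPKM in cKO 1 and the retrotransposon-derived Rtl1 reached 0.065 FPKM in cKO 2. The filter averages over all 5 libraries, so low cKO values of these members follow from it. From steps between low values, the depth was roughly 44000000, 17000000 and 11000000 fragments in control 1 to 3 and 8600000 and 10000000 in cKO 1 and 2. On these depths 1 fragment per kilobase is worth 0.023 to 0.117 FPKM, and the depth of control 1 is the least certain.

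Across the 45 tested members, 0 were higher and 1, Snurf, was lower in cKO cortex past the thresholds, which were a fold change over 2 together with an unadjusted p under 0.05 (limma on log2(FPKM + 0.1)). Of all 14699 tested genes 2.88% were higher and 1.16% lower (423 and 171 genes, or 318 and 283 after quantile normalization). No member reached an adjusted p under 0.05, beside 1.26% of all genes, and the smallest adjusted p among them was 0.239. At an unadjusted p under 0.05 alone there were 7 members, beside 11.5% of all genes. Of these, Snrpn, Peg10, H19 and Peg3 were higher in the cKO, and Snurf, Rian and Mkrn3 were lower. The log2 fold change was above 0 for 25 members and below 0 for 20, with a median of 0.04, where the median of all genes was -0.02, with 7024 above 0 and 7675 below. In bulk RNA, fewer cells of a type and less RNA per cell cannot be told apart.

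Both cKO libraries lay above all 3 controls for 9 members, Peg10, H19, Peg3, Rasgrf1, Plagl1, Igf2, Gnas, Atp10a and Asb4, beside 14.5% of all genes. For 6 members, Snurf, Rian, Mkrn3, Copg2, Nespas and Commd1, both lay below all controls, beside 16.3% of all genes. The groups of the other 30 members overlapped. Levels sum both parental copies, so full activity of a silent copy would raise a gene about 2-fold. A threshold over 2-fold can hardly be passed in this way, so the count of higher members does not decide whether silent copies became active. A loss of output from the active copy has no such limit, so this does not apply to the count of lower members. The intervals differed in width, and for most members at 1 FPKM or more a 2-fold change of the summed level lay outside them. Smaller changes inside the intervals were left undecided. For Usp29, as an example, the 95% interval of the fold ran from 0.749 to 1.32. For 32 of the 39 members that averaged 1 FPKM or more (82.1%), the 95% interval of the log2 fold change lay within 1 of 0, near the 84.4% of all genes at that level. The intervals of Snurf, Snrpn, Peg10, Rasgrf1, Plagl1, Zim1 and Atp10a reached past a 2-fold change.

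**Figure D2:**
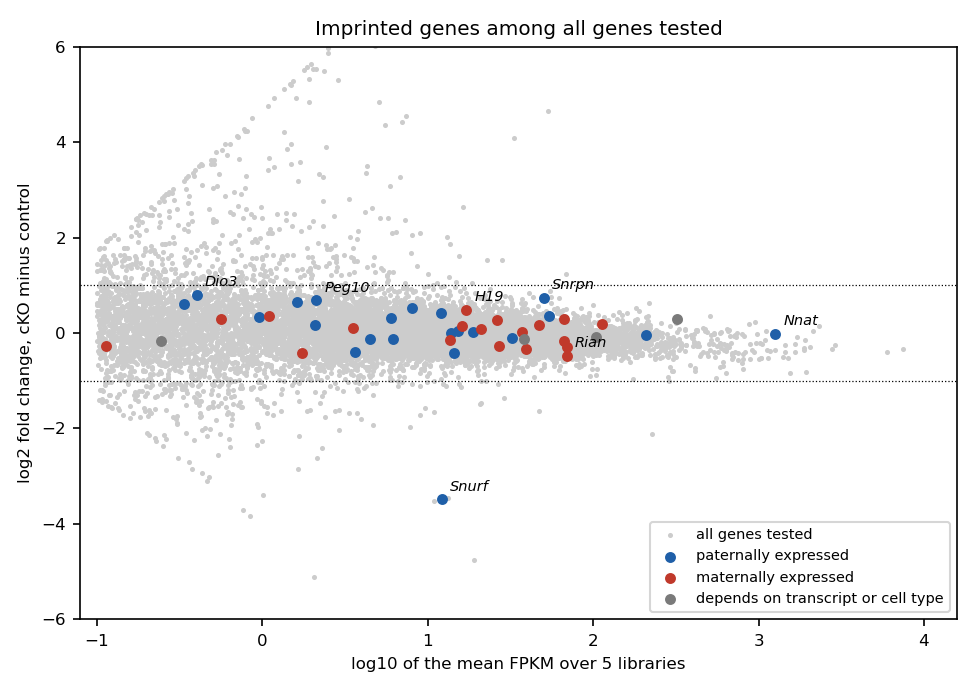
Log2 fold change, cKO minus control, against the log10 of the mean FPKM for the 45 tested imprinted genes (coloured by expressed copy) and all 14699 tested genes (light grey), with dotted lines at 2-fold. Snurf lies below the lower line and the other members between the dotted lines, and 12 grey genes beyond 6 on the vertical axis and 2 beyond the horizontal axis are not drawn.

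Sorted by the parental copy that is expressed, the members lay on both sides of 0. These classes are textbook assignments, and some differ by tissue and stage, so a member need not be imprinted in the cortex. Of 22 tested paternally expressed members, 13 had a log2 fold change above 0 and 9 below, with a median of 0.10. Of 19 tested maternally expressed members, 11 were above 0 and 8 below, with a median of 0.08. Both cKO libraries lay above all controls for 5 paternally and 3 maternally expressed members and below all controls for 3 and 3. Of the 4 members with mixed expression, 1 was above 0 and 3 were below.

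The members were also sorted by the parental chromosome on which the control region is methylated. For clusters with a maternally methylated region, 18 of 37 tested members were above 0 and 19 below, with a median log2 fold change of -0.01. Within these clusters the paternally expressed members were split 9 and 9, and the maternally expressed ones 8 and 7. For the 3 clusters with a paternally methylated region, H19-Igf2, Dlk1-Dio3 and Rasgrf1, 7 of 8 tested members were above 0, with a median of 0.41, and Rian was the 1 below. The count depended on cKO 1. Without it, 4 of the 8 were above 0 and 4 (Rian, Mirg, Meg3 and Dio3) below, with a median of 0.020, and without cKO 2 it was 7 and 1, with a median of 0.63. These are counts of few genes, 0 of the 8 passed the thresholds, and members of a cluster share control regions and are not independent of each other.

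**Figure D3:**
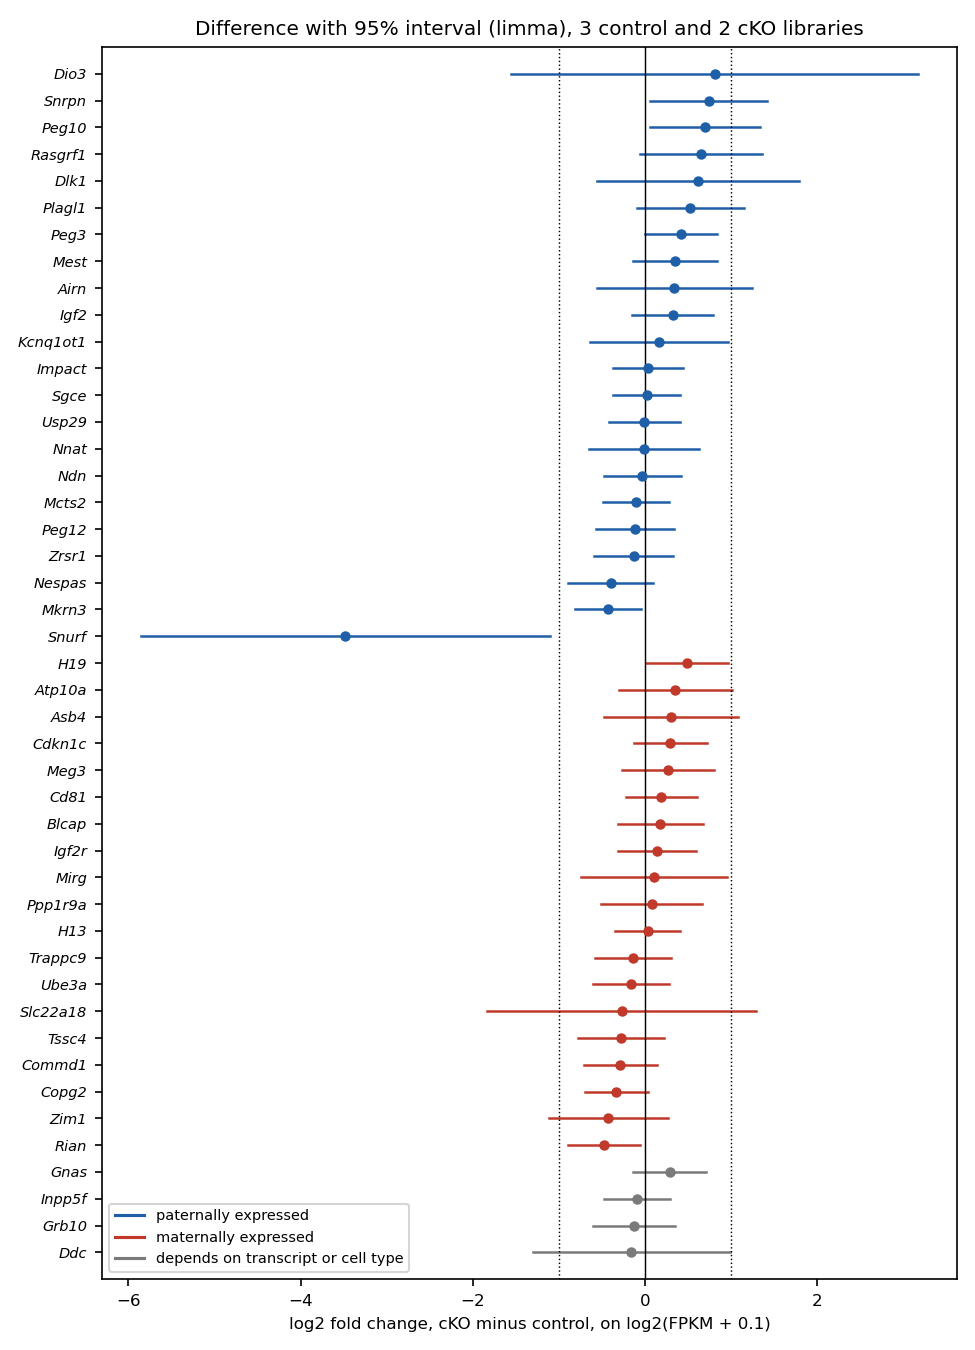
Log2 fold change (points) with its 95% interval (lines, limma) for the 45 tested members, grouped by expressed parental copy and ordered by size within each group, with dotted lines at 2-fold in either direction. In all 3 groups points lie on both sides of 0, and the interval of Snurf is the 1 interval that lies wholly beyond a 2-fold line.

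The Snrpn cluster on chromosome 7, the mouse counterpart of the Prader-Willi and Angelman region, held both the lowest and 1 of the highest log2 fold changes. Snurf, a small upstream reading frame protein (chr7:59982495-60005199, minus strand), was measured at 6.81, 26.5 and 20.7 against 0.202 and 6.40 FPKM (log2 fold change -3.48, SE 1.06, limma adjusted p = 0.239). Both cKO libraries lay below every control, but cKO 2, at 6.40 FPKM, was close to control 1, at 6.81 FPKM. Without cKO 1 the log2 fold change was -1.27 (adjusted p = 0.708, limma). The two-sided exact permutation test over libraries gave p = 0.2, where 0.1 is the smallest p that 3 libraries against 2 allow.

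Snrpn, which encodes the spliceosomal protein SmN of neurons (chr7:59982495-60450177, minus strand), had the opposite sign, at 60.6, 30.9 and 29.8 against 75.7 and 53.9 FPKM (log2 fold change 0.74, SE 0.30, limma adjusted p = 0.399). Its groups overlapped, because control 1 lay above cKO 2. Without control 1 the log2 fold change was 1.07 (adjusted p = 0.0583, limma), past the 2-fold threshold. Snurf and Snrpn are read from the same bicistronic RNA. In the GENCODE M21 annotation, all 216 exonic bases of Snurf are also exonic bases of Snrpn on the same strand, so strand-specific reads do not tell the genes apart there. Snurf made up 10.1%, 46.2% and 41.0% against 0.266% and 10.6% of the summed FPKM of the pair. The share varied widely among the controls alone, and control 1 and cKO 2 had like shares.

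Summed in each library, Snurf and Snrpn reached 67.4, 57.4 and 50.5 against 75.9 and 60.3 FPKM. The groups overlapped, and the log2 fold change of the sum was 0.22 (SE 0.18, limma adjusted p = 0.659), with a 95% interval of the fold from 0.878 to 1.55. The exact permutation test gave p = 0.4. The sum was chosen after the values were seen and consists mostly of Snrpn, so it describes the output of the pair and says little about Snurf alone.

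**Figure D4:**
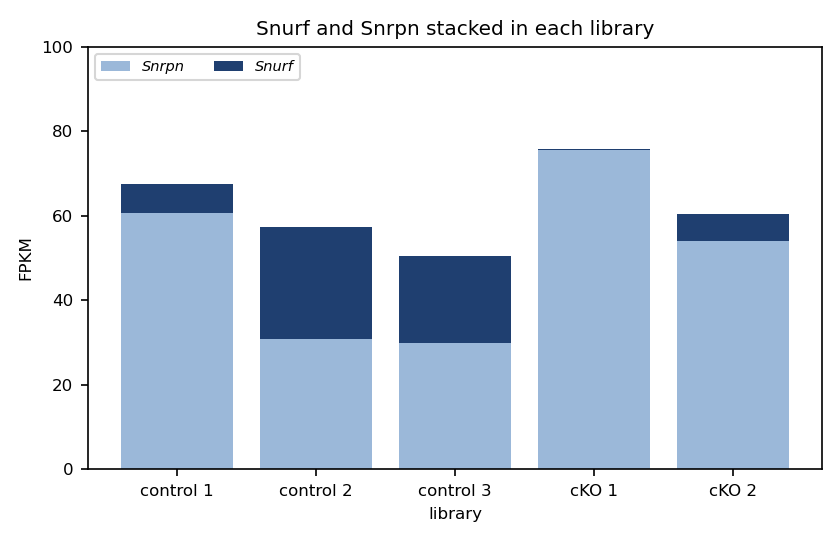
FPKM of Snrpn (light) and Snurf (dark) stacked in each of the 3 control and 2 cKO libraries. The total height overlaps between groups, from 50.5 to 67.4 FPKM in controls against 60.3 and 75.9 FPKM in cKO, while the dark share runs from 0.266% in cKO 1 to 46.2% in control 2.

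The other paternally expressed genes of the cluster had log2 fold changes below 0, unlike Snrpn. Mkrn3, a ring finger protein that holds back puberty (chr7:62417593-62420153, minus strand), was at 17.1, 16.6 and 14.2 against 12.6 and 11.04 FPKM (log2 fold change -0.43, SE 0.17, limma adjusted p = 0.393), with both cKO libraries below the controls. Peg12, a Frat-family protein of Wnt signalling, was at 7.39, 5.95 and 5.80 against 5.70 and 5.99 FPKM (log2 fold change -0.12, 95% interval -0.57 to 0.34). Ndn, whose values are given above, had a log2 fold change of -0.03 (95% interval -0.48 to 0.41). Of the maternally expressed genes, Ube3a, the ubiquitin ligase lost in Angelman syndrome and silenced on the paternal copy in neurons, was at 56.5, 67.5 and 84.6 against 56.1 and 66.99 FPKM (log2 fold change -0.16, 95% interval -0.60 to 0.28). The cKO libraries lay within or just below the range of the controls. Atp10a, a phospholipid transporter, was low, at 0.936, 1.01 and 0.955 against 1.13 and 1.42 FPKM (log2 fold change 0.35, 95% interval -0.30 to 1.01), with both cKO libraries above the controls.

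At the H19-Igf2 domain both transcribed members were higher in the cKO libraries than in every control. H19, a maternally expressed long noncoding RNA of embryonic tissue (chr7:142575530-142578146, minus strand), was at 14.4, 11.6 and 18.6 against 19.2 and 21.8 FPKM (log2 fold change 0.49, SE 0.21, limma adjusted p = 0.421). Control 3 and cKO 1 differed by less than 1 FPKM. Igf2, the paternally expressed growth factor, was at 4.70, 5.65 and 5.90 against 7.45 and 6.13 FPKM (log2 fold change 0.32, 95% interval -0.15 to 0.79), and its interval included 0. Igf2 in the embryonic brain is known mainly from meninges, vessels and choroid plexus, cells outside the Emx1 lineage or at its edge. The summed level of 11 marker genes of leptomeninges and fibroblasts was 8.07, 5.86 and 5.66 against 11.7 and 18.4 FPKM, and 9 of the 10 tested were above 0 in log2 fold change. The 3 markers Crabp2, Col1a1 and Lum were higher past the thresholds. Crabp2, at 0.629, 0.072 and 0.757 against 4.22 and 5.29 FPKM, was the largest part of the sum in both cKO libraries. Col1a1, at 0.816, 0.203 and 0.374 against 0.663 and 3.19 FPKM, was raised in cKO 2 only. Of the 10 tested, both cKO libraries lay above all controls for 4 and below for 1, and the groups of 5 overlapped. Of the choroid plexus markers, Ttr was at most 0.800 FPKM in any library. The summed endothelial and pericyte markers were 165, 123 and 125 against 143 and 142 FPKM. Their part in the values of H19 and Igf2 was not tested.

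Igf2r, the maternally expressed receptor that clears Igf2, was at 17.8, 15.4 and 13.1 against 14.5 and 19.6 FPKM (log2 fold change 0.14, 95% interval -0.31 to 0.59), and the groups overlapped. Airn, the long RNA antisense to it and known as a silencer of its paternal copy, lay between 0.592 and 1.56 FPKM with no separation of the groups (log2 fold change 0.34, 95% interval -0.56 to 1.24). The Igf2r-Airn pair thus gave no difference past the thresholds in either the receptor or the antisense RNA. Grb10, an adaptor that dampens insulin and Igf receptor signalling and is paternally expressed in neurons, was at 29.4, 42.04 and 48.2 against 36.6 and 35.2 FPKM (log2 fold change -0.12, 95% interval -0.60 to 0.35). Ddc, its neighbour and the decarboxylase of dopamine and serotonin synthesis, lay between 0.113 and 0.358 FPKM. Rasgrf1, a Ras exchange factor with a paternally methylated region, was at 1.15, 0.999 and 1.80 against 1.98 and 2.16 FPKM (log2 fold change 0.65, 95% interval -0.05 to 1.36, adjusted p = 0.462, limma). Its cKO libraries lay above the controls, with control 3 close to cKO 1.

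In the Kcnq1ot1 domain the silencing RNA and the other tested members showed no difference past the thresholds. Kcnq1ot1, the paternally expressed RNA that represses its neighbours, was at 1.44, 2.65 and 1.83 against 1.55 and 2.96 FPKM (log2 fold change 0.16, 95% interval -0.64 to 0.96). Cdkn1c, the cyclin-dependent kinase inhibitor p57, was at 69.7, 52.9 and 61.1 against 86.4 and 64.4 FPKM (log2 fold change 0.29, 95% interval -0.13 to 0.72). In both genes the groups overlapped. Cd81, a tetraspanin, was at 102, 95.3 and 124 against 136 and 109 FPKM, and Tssc4, a factor of spliceosome assembly, at 31.3, 25.8 and 29.6 against 30.6 and 18.3 FPKM. Their log2 fold changes were 0.19 (95% interval -0.22 to 0.60) and -0.28 (-0.78 to 0.22), with overlapping groups. The transporter Slc22a18 lay between 0 and 0.211 FPKM.

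In the Peg3 cluster, Peg3 had separate groups and its neighbours did not. Peg3, a zinc finger protein (chr7:6703892-6730462, minus strand), was at 10.7, 12.2 and 8.97 against 13.9 and 14.4 FPKM (log2 fold change 0.42, SE 0.19, limma adjusted p = 0.431), with both cKO libraries above the controls. Usp29, a ubiquitin protease relative read in the opposite direction from the neighbouring start, was at 14.6, 15.6 and 11.6 against 13.5 and 14.03 FPKM (log2 fold change -0.01, 95% interval -0.42 to 0.40). Its cKO libraries lay inside the range of the controls. Zim1, the maternally expressed zinc finger gene beside them, was at 1.88, 2.19 and 1.71 against 1.85 and 1.06 FPKM (log2 fold change -0.43, 95% interval -1.12 to 0.27), and cKO 2 was its lowest library.

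The Mest and Peg10-Sgce clusters lie on chromosome 6. Mest, a hydrolase-family protein of embryonic tissue, was at 39.5, 46.7 and 60.5 against 72.00 and 52.3 FPKM (log2 fold change 0.35, 95% interval -0.14 to 0.84), and the groups overlapped. Copg2, a coatomer subunit whose 3′ end overlaps that of Mest on the other strand, was at 41.3, 41.3 and 44.5 against 29.7 and 38.1 FPKM (log2 fold change -0.33, adjusted p = 0.470, limma). Both cKO libraries lay below the controls, whose values were within a narrow range. Peg10, a protein derived from a retrotransposon gag and pol (chr6:4747306-4760517, plus strand), was at 1.23, 1.79 and 2.04 against 2.69 and 2.78 FPKM (log2 fold change 0.70, SE 0.29, limma adjusted p = 0.401). The cKO libraries were close to each other and above every control. Sgce, epsilon-sarcoglycan, which starts beside Peg10 on the other strand, was at 19.6, 16.1 and 20.4 against 17.7 and 20.1 FPKM (log2 fold change 0.02, 95% interval -0.37 to 0.41). Ppp1r9a, the actin-binding protein neurabin, was at 23.8, 24.4 and 13.97 against 17.97 and 24.9 FPKM (log2 fold change 0.08, 95% interval -0.51 to 0.67). Sgce and Ppp1r9a showed overlapping groups, and Asb4 lay between 0.440 and 0.704 FPKM.

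The Dlk1-Dio3 cluster on chromosome 12 produced mainly its maternally expressed noncoding RNAs. Rian, host of many small nucleolar RNAs (chr12:109603945-109661716, plus strand), was at 82.5, 73.04 and 76.7 against 66.9 and 46.4 FPKM (log2 fold change -0.47, SE 0.19, limma adjusted p = 0.383), and both cKO libraries lay below the controls. Small RNAs, which include small nucleolar RNAs, made up 88.5%, 64.9% and 72.2% against 39.5% and 56.5% of all FPKM in these libraries, lower in both cKO libraries, and their part in the level of Rian was not tested. Meg3, which starts the same polycistronic stretch, was at 24.3, 26.2 and 21.2 against 38.01 and 21.6 FPKM (log2 fold change 0.27, 95% interval -0.26 to 0.80). Mirg, a microRNA host further downstream, was at 2.60, 3.04 and 4.36 against 5.48 and 2.23 FPKM (log2 fold change 0.10, 95% interval -0.74 to 0.95). In the cKO, Meg3 and Mirg were each highest in cKO 1 and within or just under the control range in cKO 2. The protein-coding members were low. Dlk1, a Notch-like membrane protein, lay between 0.102 and 0.590 FPKM, and Dio3, which inactivates thyroid hormone, between 0 and 1.51 FPKM. Dio3 was at 1.51 FPKM in cKO 1 and at 0 in cKO 2, so its log2 fold change of 0.81 (95% interval -1.56 to 3.17) rests on a single library.

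On chromosome 2, the Nnat-Blcap, Gnas and Mcts2-H13 members other than Nespas were among the abundant ones. Nnat had a log2 fold change of -0.01 (95% interval -0.65 to 0.62), with its highest level in cKO 1 and its lowest in cKO 2. Blcap, the gene in whose intron Nnat lies, was at 48.9, 41.2 and 41.8 against 64.02 and 38.4 FPKM (log2 fold change 0.18, 95% interval -0.31 to 0.67), with the same order of the cKO libraries. Gnas had a log2 fold change of 0.29 (95% interval -0.13 to 0.71). Nespas, the paternally expressed antisense RNA of the Gnas cluster, was at 3.72, 4.59 and 3.77 against 2.97 and 3.07 FPKM (log2 fold change -0.40, 95% interval -0.90 to 0.10), with both cKO libraries below the controls. Mcts2, a retrogene inside an intron of H13, was at 30.1, 30.9 and 38.7 against 32.1 and 29.3 FPKM (log2 fold change -0.11, 95% interval -0.48 to 0.27). H13, the signal peptide peptidase, was at 33.95, 43.4 and 33.5 against 38.3 and 36.6 FPKM (log2 fold change 0.03, 95% interval -0.35 to 0.41). For Mcts2 and H13 the cKO libraries fell within or near the control range.

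Of the remaining loci, Plagl1, a zinc finger regulator of imprinted gene networks, was at 4.46, 8.42 and 7.75 against 10.4 and 8.86 FPKM (log2 fold change 0.53, 95% interval -0.09 to 1.15, adjusted p = 0.499, limma). Control 1 was well below the other libraries, and control 2 was close to cKO 2. Zrsr1, a splicing factor retrogene in an intron of Commd1, was at 4.22, 4.76 and 4.93 against 4.30 and 4.12 FPKM (log2 fold change -0.13, 95% interval -0.59 to 0.33). Commd1, a protein of copper handling and trafficking, was at 69.2, 63.6 and 92.96 against 59.7 and 61.8 FPKM (log2 fold change -0.29, 95% interval -0.71 to 0.13), with both cKO libraries below the controls. Impact, a regulator of translation in neurons, was at 13.6, 15.5 and 15.7 against 13.4 and 17.5 FPKM (log2 fold change 0.04, 95% interval -0.37 to 0.44). Inpp5f, a phosphoinositide phosphatase, was at 111, 90.7 and 119 against 103 and 95.99 FPKM (log2 fold change -0.09, 95% interval -0.48 to 0.29). Trappc9, a subunit of a vesicle tethering complex, was at 15.2, 15.8 and 11.5 against 11.6 and 13.9 FPKM (log2 fold change -0.14, 95% interval -0.59 to 0.30). For the last 3 genes the groups overlapped.

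The cKO libraries often differed from each other. Among the 39 members that averaged 1 FPKM or more, 12 had their highest value in cKO 1 and 9 in cKO 2, and for 15 the gap between the cKO libraries exceeded the whole range of the controls. The cKO mean lay within the control range for 17. Leaving out cKO 1 took the log2 fold changes of Meg3, Mirg and Blcap to -0.14, -0.52 and -0.19, and leaving out cKO 2 took those of Nnat and Ndn to 0.35 and 0.20, so for these genes the sign depended on the cKO library. The cKO libraries also differed in other cell markers. The summed markers of ventral telencephalon and interneurons, cells outside the Emx1 lineage, were 176, 171 and 206 against 315 and 193 FPKM. Npy and Sst, at 134 and 78.2 FPKM, were the largest parts of this sum in cKO 1. Of 14 tested markers 13 were above 0 and 2, Gsx2 and Isl1, were higher past the thresholds. Gsx2 was at most 1.10 FPKM in any library. Isl1, at 0.052, 0 and 0.080 against 0.0995 and 1.23 FPKM, rested mainly on cKO 2. The summed dorsal cortex markers were 1211, 1255 and 1459 against 990.2 and 1053 FPKM, with 10 of 12 below 0 and 0 past the thresholds. Neurod6 was the largest part of this sum, at 712, 686 and 1013 against 612 and 589 FPKM. At an unadjusted p under 0.05 (limma), 4 dorsal markers (Lhx2, Eomes, Pax6 and Emx1) were lower and 0 higher, beside 11.5% of all genes. Of the ventral markers, 6 were higher and 1 was lower at that p. The summed neuronal markers, such as Tubb3, were 3474, 3011 and 2945 against 3134 and 2813 FPKM. The part of these cells in the levels of imprinted genes was not tested.

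A second list of 35 genes reported as imprinted, most of them in placenta or in single tissues, had 25 genes tested. The amino acid transporter Slc38a4 was higher past the thresholds, at 0.512, 0.601 and 0.822 against 1.81 and 1.11 FPKM (log2 fold change 1.05, adjusted p = 0.299, limma). In the list 0 were lower past them, and 0 reached an adjusted p under 0.05. Of all genes 2.88% were higher and 1.16% lower past the thresholds, and 1.26% reached that adjusted p. Without cKO 1 the log2 fold change of Slc38a4 was 0.72 (adjusted p = 0.665, limma), and without control 1 it was 0.92. The list split into 15 above and 10 below 0. At an unadjusted p under 0.05, Slc38a4, Ago2, Smoc1 and Herc3 were higher and Nap1l5 was lower. These are 5 of the 25, beside 11.5% of all genes. Nap1l5, a retrogene inside an intron of Herc3, was at 18.7, 18.2 and 17.3 against 13.5 and 12.8 FPKM, and Herc3 was at 20.6, 18.5 and 16.9 against 23.3 and 35.9 FPKM. Their log2 fold changes were -0.46 and 0.63, opposite in sign (adjusted p = 0.302 and 0.282, limma), and in both genes the groups did not overlap. Both cKO libraries lay above all controls for 6 of the 25 and below for 4, beside 14.5% and 16.3% of all genes.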

How the data were processed

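RNA from the entire E16 cortex of 3 control and 2 Uhrf1 cKO embryos was sequenced after ribosomal RNA depletion with a strand-specific kit. The authors mapped paired reads of 100 bases to mm10 with TopHat2, removed duplicated, poorly aligned, improperly paired and multiply mapped reads, and deposited FPKM per gene and library from Cuffdiff and cummeRbund. Their annotation and the tool versions were not given in the sources used here. No counts are in the table, so depth was only approximated from steps between low values. Of such values, 60.3% to 78.4% were at most 0.25 from a whole fragment number. Each depth was chosen for the best fit to whole numbers, so these shares are raised in part by construction. The lowest share, 60.3%, was that of control 1, whose depth is therefore the least certain.

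The difference of cKO minus control was estimated on log2(FPKM + 0.1) by limma 3.58.1 in R 4.3.3 (lmFit, eBayes with a trend), over genes with a mean of 0.1 FPKM or more, leaving out names of small RNAs. P-values were adjusted over all 14699 genes tested after Benjamini and Hochberg. Fold changes of low genes are understated on this scale. The fit was tested on simulated data. Positions came from RefSeq (GRCm38.p6), where 49 members matched by symbol and Nespas by a synonym, and exons from GENCODE M21. The classes by parental copy are textbook assignments, and some differ by tissue and stage. All members are named, and those that averaged 1 FPKM or more have every library given. Of the marker and other lists, genes past the thresholds are named. The members and lists were chosen with earlier results of these data known, and the sum of Snurf and Snrpn was added after seeing the data. Alternatives changed the pseudocount, filter, scaling and trend or left out 1 library. Python 3.11.15 and matplotlib 3.10.9 drew the figures.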

Additional observations from a re-analysis of the deposited data

How the results depend on the processing

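Leaving out 1 library in turn gave 0 to 1 members higher and 0 to 1 members lower past the thresholds. The 1 higher member was Snrpn without control 1 (log2 fold change 1.07, adjusted p = 0.0583, limma) and Dio3 without cKO 2, and the count of lower members was 0 without cKO 1. The median log2 fold change ranged from -0.013 to 0.14 for all members, from 0.045 to 0.27 for paternally expressed ones and from -0.013 to 0.12 for maternally expressed ones, and that of Snurf from -5.70 without cKO 2 to -1.27 without cKO 1. Over 11 alternatives the adjusted p of Snurf was 0.0951 to 0.708, and 0 members reached an adjusted p under 0.05 in any. From 2 to 8 members had an unadjusted p under 0.05, Snurf in 10 of the alternatives, Rian and Mkrn3 in 7, Snrpn, Peg10 and Peg3 in 5 and H19 in 4. Of 429 comparisons with an alternative, over the 39 members that averaged 1 FPKM or more, 405 kept their reading. These stayed past the thresholds, or stayed short of them and moved by less than the residual spread. Snurf stayed past them while moving from -3.48 to -5.70 without cKO 2. In 31 comparisons, in 16 of the 39 members whose log2 fold change was at most 0.28 in size, the sign changed. Dio3, under that mean, went from 0.81 to -1.20 without cKO 1. No paired analysis was possible because the labels give the libraries no shared replicate numbers.

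Counts over all genes moved more. Higher genes numbered 423 in the reported fit, 154 with a pseudocount of 1 and 172 with a filter at 1 FPKM, and lower genes 171, 25 and 64. There were 283 lower genes after quantile normalization and 313 without cKO 1. Genes at an adjusted p under 0.05 numbered 185, and 113 with the filter at 1 FPKM, 36 without cKO 1 and 49 without cKO 2. Fits without a cKO library assume that the lone cKO library varies like the controls. The low and unequal depth limits members under 1 FPKM.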

Other observations

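Marker lists of other cells were read in the same libraries, with values in the order control 1, 2 and 3 against cKO 1 and 2. Microglial markers summed to 26.8, 22.1 and 35.8 against 38.2 and 37.8 FPKM, with 5 of 8 tested markers above 0 in log2 fold change and 0 past the thresholds. Radial glia and cycling progenitor markers, such as Vim and Fabp7, summed to 1669.8, 1532 and 2186 against 1448 and 1203 FPKM, with 7 of 10 below 0 and 0 past the thresholds. Erythroid markers summed to 923, 598 and 817 against 512 and 454 FPKM. Of these, the alpha-globin paralogs Hba-a1 and Hba-a2 were past the thresholds in opposite directions, Hba-a1 at 34.5 FPKM in cKO 1 and at most 1.29 FPKM elsewhere and Hba-a2 at 93.5 FPKM in control 1 and at most 1.30 FPKM elsewhere, and near-identical genes of this kind cannot be separated with confidence once multiply mapped reads are removed. Choroid plexus markers summed to 0.725, 1.07 and 0.963 against 0.136 and 0.741 FPKM, and 6 of the 8 were under the filter for testing, while Ttr, at 0.484, 0.800 and 0.382 against 0 and 0.389 FPKM, was lower past the thresholds (log2 fold change -1.52).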
